A study of Mus musculus with 24 samples.

Results

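Microglia cultured from SOD1G93A mice and given lipopolysaccharide (LPS) were set against wild-type (WT) microglia given no LPS, and the RNA of 6 of the series' 24 samples makes up this comparison. The SOD1G93A LPS cells held far more mRNA for interleukins, chemokines, interferon-stimulated genes and the enzymes that make nitric oxide, itaconate and prostaglandin E, and less for the surface receptors that mark resting microglia and for the machinery of DNA replication. The samples were chosen by their labels alone, as the 3 SOD1G93A LPS libraries and the 3 WT quiescent libraries that the authors tabulated together. Genotype and LPS change together between these groups, so their contributions cannot be told apart from these 6 libraries.

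The study asked how glia that carry an amyotrophic lateral sclerosis (ALS) mutation respond to inflammatory signals, and collected 24 bulk RNA-seq libraries in 8 groups of 3, from astrocytes and microglia. SOD1G93A mice carry a transgene for human superoxide dismutase 1 with the G93A substitution found in familial ALS, under the human SOD1 promoter and beside the intact mouse *Sod1* gene. Microglia of both genotypes came from perfused whole brains of pups at postnatal days 7 to 10, were taken with beads against CD11b, and were grown in a serum-free medium with TGF-beta, IL-34 and cholesterol. The WT quiescent group received saline (PBS) as its control treatment, and the SOD1G93A LPS group received LPS at 50 ng/ml. A WT group given the same LPS dose supplies 3 more libraries that are used further on, and the SOD1G93A microglia without LPS were not analysed here. How long the cells were exposed to LPS before RNA was taken is not given in the sources used. These are young cells in culture, taken long before mice of this model lose motor function, which limits what they model of the disease.

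LPS is an outer-membrane lipid of Gram-negative bacteria, and microglia, the resident macrophages of the brain, detect it through the receptor TLR4 with its partners MD-2 and CD14. Inside the cell one adaptor, MyD88, leads to the transcription factor NF-kB and to cytokine genes, while another, TRIF, leads to type I interferon, whose receptor switches on antiviral genes. Microglia in a healthy brain express a homeostatic set of genes such as *P2ry12* and *Tmem119*, kept up by TGF-beta, and activated microglia are a known source of IL-1 alpha, TNF and C1q, signals that turn astrocytes reactive.

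The values are normalized counts: reads assigned to a gene, divided by 1 scaling factor per library. Values are given in the order of replicates 1, 2 and 3. The WT libraries held 10157188, 2550560 and 6940651 reads in genes, and the SOD1G93A LPS libraries held 5917006, 11570122 and 4042840. The most abundant gene was *Ctsd* in each WT library, at 3.13% to 3.24% of reads, and *Fth1* in each SOD1G93A LPS library, at 3.55% to 3.63%. Differences between the groups were tested with limma on log2(normalized count + 1) for the 10921 genes with a mean of at least 10, and a gene is called when its Benjamini-Hochberg adjusted p is under 0.001 and its change is over 2-fold. Nothing in the labels says whether the 3 libraries of a group are separate animals or separate cultures, so the p-values measure the spread between these libraries and nothing wider.

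Before the results, 1 library needs a description of its own. SOD1G93A LPS replicate 3 stood apart from replicates 1 and 2: its differences from them were 16.8 and 21.7 times as large as counting error in variance, against 2.41 between replicates 1 and 2 and 1.85 to 2.55 between WT libraries. In it 399 genes were more than 2-fold below the mean of the other two and 209 were more than 2-fold above. Genes of the LPS response were among those lower in replicate 3: 40 of 40 antiviral interferon-stimulated genes lay below the mean of the other replicates, with a median log2 difference of -0.79, and so did 727 of the 898 genes called higher in the comparison. Homeostatic microglia genes ran the other way, with a median of 0.21. For these genes the deviation runs toward the WT libraries, and results that rest on replicate 3 are given with and without it. Its cause was not tested.

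RNA of the sex chromosomes also differed between the groups. On the CPM scale, reads corrected for library total, the 4 Y-linked genes tested came to 60.6, 51.4 and 53.0 CPM in the WT libraries and to 2.54, 2.68 and 1.48 CPM in the SOD1G93A LPS libraries. *Xist*, the RNA that silences an X chromosome in female cells, stood at 96.7, 65.9 and 86.7 CPM in WT and at 177, 138 and 189 CPM in SOD1G93A LPS. The WT libraries thus held both *Xist* and Y-linked reads, and the SOD1G93A LPS libraries held few Y-linked reads. *Ddx3y*, a Y-linked RNA helicase, fell by 4.76 on the log2 scale (limma adjusted p = 6.7e-07), and *Eif2s3y* fell by 3.69. Within these 6 libraries a difference in the sex of the pups cannot be told apart from genotype and LPS. In the WT LPS libraries used further on, the Y-linked genes came to 2.34, 1.77 and 4.71 CPM. With X-linked and Y-linked genes set aside, 1676 genes were called.

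Marker genes checked the labelled cell type. Each of the 12 microglia markers was present, and their summed level was 10480, 11000 and 10330 CPM in WT and 3201, 3150 and 4772 in SOD1G93A LPS, with *Csf1r*, the receptor for IL-34, the most abundant. The sum was lower in the LPS libraries, 9 of the 12 markers were called lower and the median was -1.36, while *Aif1* and *Itgam* had log2 fold changes of -0.02 and -0.06 and were not called. In bulk RNA, fewer cells of a type and less RNA per cell cannot be told apart. Oligodendrocyte-lineage markers summed to 1320, 1346 and 1361 CPM in WT and 153, 156 and 254 in SOD1G93A LPS, with 5 of 8 genes tested and *Mog* at 0. Most of that sum was *Cspg4*, at 1202, 1238 and 1247 CPM in WT and 112, 107 and 212 in SOD1G93A LPS, and *Cspg4* and *Mbp* were called lower, at log2 fold changes of -2.95 and -1.98. The median of the list was -0.15 (0.09 without SOD1G93A LPS replicate 3). Astrocyte markers, 8 of 8 tested, summed to 160, 147 and 155 in WT and 177, 220 and 135 in SOD1G93A LPS, with *Gfap* the most abundant except in SOD1G93A LPS replicate 3, where *Slc1a2* was. *Gja1* and *Slc1a2* were called higher at log2 fold changes of 2.93 and 2.07, while the other 6 astrocyte markers were below 0 and not called, and the median of the list was -0.12 (0.13 without SOD1G93A LPS replicate 3). Border macrophage markers (4 of 8 tested, *Lyve1* at 0, with *Mrc1*, *Ccr2* or *Pf4* the most abundant depending on the library) reached 6.20, 7.84 and 9.65 in WT and 13.2, 12.8 and 20.8 in SOD1G93A LPS. Of these *Ly6c2* was called higher (log2 fold change 3.94, from at most 3 reads in each WT library), a call lost without WT replicate 1, and without any 1 of the SOD1G93A LPS libraries it did not pass the filter. Neutrophil markers reached 77.7, 94.5 and 78.8 in WT and 98.4, 98.9 and 128 in SOD1G93A LPS (1 of 8 tested) through *Csf3r*, which macrophages also express, with *S100a9* and *Elane* at 0. Endothelial markers (3 of 6 tested, led by *Flt1* in WT, by *Pecam1* in SOD1G93A LPS replicates 1 and 2 and by *Vwf* in replicate 3, with *Cldn5* and *Tek* at 0) came to 65.3, 79.6 and 74.8 in WT and 30.8, 33.5 and 20 in SOD1G93A LPS. Each of the 3 tested was called: *Pecam1* higher (log2 fold change 4.04, or 4.63 without WT replicate 2 and 4.60 without SOD1G93A LPS replicate 3), *Flt1* lower (-3.31) and *Vwf* lower (-1.11). The call of *Pecam1* was lost without WT replicate 1 or 3 or SOD1G93A LPS replicate 1 or 2, and that of *Vwf* without any 1 library other than SOD1G93A LPS replicate 3. With a replicate block the call of *Vwf* was also lost (limma adjusted p = 0.00125). Pericyte and fibroblast markers (4 of 6 tested, led by *Col1a1* in WT, by *Dcn* in SOD1G93A LPS replicates 1 and 2 and by *Pdgfrb* in replicate 3) came to 11.7, 5.49 and 5.19 in WT and 13.4, 15.0 and 10.6 in SOD1G93A LPS. *Dcn* was called higher (log2 fold change 4.31, from at most 3 reads in each WT library), or 4.97 without SOD1G93A LPS replicate 3 and 4.90 without WT replicate 3, and its call was lost without any 1 library other than SOD1G93A LPS replicate 3. Other limma settings also lost the call of *Dcn*, among them a replicate block (adjusted p = 0.00368). Neuron markers (1 of 8 tested, led by *Map2*, with *Nefl* at 0) came to 16.6, 14.1 and 15.4 in WT and 11.7, 14 and 9.40 in SOD1G93A LPS. Lymphocyte markers stayed at or under 0.519 CPM with *Cd3e*, *Cd3g* and *Nkg7* at 0, and red blood cell markers stayed at or under 0.247 with *Hba-a2* and *Hbb-bs* at 0. What part such cells have in the results was not tested.

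Across the transcriptome, 1718 genes were called (15.7% of the 10921 tested), 898 of them higher (8.22%) and 820 lower (7.51%) in SOD1G93A LPS microglia. Rises were larger than falls: 316 called genes were over 8-fold higher and 83 were over 8-fold lower, and 108 were over 32-fold higher against 2 lower. The median log2 fold change over all genes tested was 0.01, so lists of genes are read against that value. Counts of called genes in a list are likewise read against the 8.22% called higher and 7.51% called lower. The lowest and highest libraries of the groups did not overlap for 6840 genes (62.6%), and each of the 1718 called genes is among them. Without SOD1G93A LPS replicate 3 the test called 2187 genes, 1075 higher and 1112 lower. Leaving out WT replicate 1, 2 or 3 lowered the number called lower to 527, 513 or 539, and the number called higher to 761, 750 or 765.

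**Figure D1:**
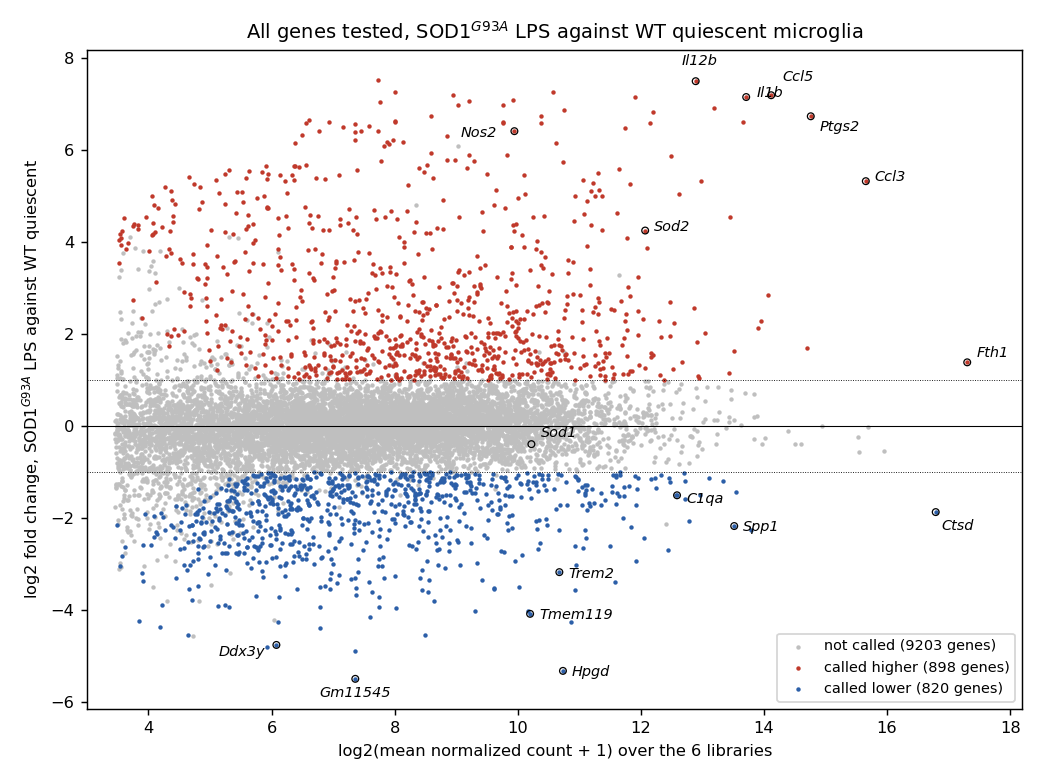
Each point is 1 of the 10921 genes tested, with the log2 of its mean normalized count plus 1 on the x axis and its log2 fold change between SOD1G93A LPS and WT quiescent microglia on the y axis. Dotted lines mark 2-fold, red points are the 898 genes called higher and blue points the 820 called lower, and circled genes are named in the text.

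*Sod1*, the mouse gene for the cytosolic enzyme that the human transgene adds to, is at chr16:90220754-90226329 in GRCm38. Its normalized counts were 1268, 1474 and 1329.9 in WT and 1013, 966 and 1107 in SOD1G93A LPS. The 3 SOD1G93A LPS libraries lay below the 3 WT libraries, with a log2 fold change of -0.40 (SE 0.08) and a limma adjusted p of 0.00322, so the gene was not called. Whether reads from the human transgene were counted toward the mouse gene was not tested. *Sod2*, the manganese enzyme of mitochondria, behaved otherwise: its counts were 399, 487 and 409 in WT and 8239, 8024 and 8232 in SOD1G93A LPS. The SOD1G93A LPS libraries lay close together, replicate 3 included, at 18.9 times the WT mean (log2 fold change 4.24, limma adjusted p = 7.5e-09). Among genes linked to inherited ALS, 26 of 28 passed the low-value filter and 3 were called higher, a share close to the 8.22% of all genes tested, with a median log2 fold change of 0.10. They were *Sqstm1*, an autophagy receptor that rose 3.12-fold, *Spg11*, a lysosomal recycling factor that rose 2.64-fold, and *3110043O21Rik*, the mouse counterpart of C9orf72. The last had a log2 fold change of 1.04 that dropped under 2-fold without WT replicate 2 (0.98) and under quantile normalization (0.94). *Tardbp*, which encodes TDP-43, was at 720.0, 653 and 730 in WT and 632, 602 and 684 in SOD1G93A LPS, and those ranges overlap.

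The mRNA of the receptor that detects LPS was present in both groups at nearly the same level. *Tlr4* counts were 251, 250.4 and 266 in WT and 262, 274 and 271 in SOD1G93A LPS, a log2 fold change of 0.07 that becomes -0.03 under quantile normalization, and it was not called. Its partners were higher: *Cd14*, which hands LPS to the receptor, had counts of 5492, 5299 and 5484 in WT and 28508, 28436 and 22104 in SOD1G93A LPS. No library of one group reached the other, and *Cd14* rose 4.86-fold (limma adjusted p = 4.7e-07). *Ly96*, which encodes MD-2, rose 3.02-fold and *Tlr2*, the receptor for bacterial lipopeptides, rose 3.88-fold. The largest change among the sensing genes was in a brake on the pathway, *Irak3*, a kinase relative without activity that halts signalling from MyD88. Its counts went from 102, 123 and 111 in WT to 2794, 2651 and 2492 in SOD1G93A LPS. The SOD1G93A LPS libraries differed little among themselves and lay 23.6-fold above the WT mean (log2 fold change 4.55, limma adjusted p = 7.5e-09). Of the 25 of 27 genes of LPS sensing that passed the filter, 10 were called higher, with a median log2 fold change of 0.42, or 1.21 over the 21 not on the X or Y chromosome.

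Several genes that NF-kB turns on to restrain itself rose, as did some of its own subunits. *Nfkbia*, whose protein holds NF-kB in the cytoplasm, had counts of 367, 339.9 and 369 in WT and 2462, 2414 and 1813 in SOD1G93A LPS, with replicate 3 the lowest of the LPS libraries and still far above WT. It rose 6.22-fold (limma adjusted p = 3.5e-07). *Tnfaip3*, which encodes the ubiquitin editor A20, rose 15.3-fold, and *Nfkbiz*, a nuclear partner needed for *Il6* transcription, rose 24.4-fold. *Socs3*, which blocks signalling from the IL-6 receptor, had counts of 113, 103 and 108 in WT and 5696, 5469.9 and 3743 in SOD1G93A LPS. Again replicate 3 was the lowest of its group, and the groups were far apart at a log2 fold change of 5.49 (limma adjusted p = 2.1e-08). The subunit genes *Nfkb1*, *Nfkb2*, *Rel* and *Relb* were called higher, at log2 fold changes of 1.57, 2.87, 2.32 and 1.49, whereas *Rela* was not called, at 0.50. In the list of NF-kB subunits and inhibitors, 15 of the 26 tested of 26 were called higher with a median of 1.60, and 18 were called higher without replicate 3.

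Cytokine genes showed some of the largest changes. *Il1a*, 1 of the 3 signals that turn astrocytes reactive, is at chr2:129299610-129309972 and had counts of 158, 125 and 178 in WT and 20226, 20731 and 14603 in SOD1G93A LPS. The 3 SOD1G93A LPS libraries were far above the 3 WT libraries, replicate 3 the lowest of them, and the gene rose 120.4-fold between the means (log2 fold change 6.90, SE 0.16, limma adjusted p = 1.2e-08). *Tnf*, at chr17:35199381-35202007, had counts of 256, 230.3 and 246 in WT and 6451, 6271 and 5374 in SOD1G93A LPS. It rose 24.7-fold with little spread in either group (limma adjusted p = 7.5e-09). *Il1b*, the other agonist of the IL-1 receptor, went from 207, 154 and 196 to 30011, 29653 and 20253, a log2 fold change of 7.15 (limma adjusted p = 1.2e-08). *Il1rn*, whose protein occupies the same receptor without activating it, went from 329, 344 and 381 to 19711, 20926 and 6783. For this antagonist replicate 3 lay well below replicates 1 and 2, and the log2 fold change was 5.32 with it and 5.85 without it.

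*Il6* and *Il12b*, cytokines that act on B cells and T cells, rose from low counts. For *Il6* the counts were 25.9, 24.6 and 33.7 in WT and 3774, 3808 and 2618 in SOD1G93A LPS (log2 fold change 6.86, limma adjusted p = 1.7e-08). For *Il12b*, the subunit common to IL-12 and IL-23, they were 83.5, 62.6 and 98 and 17082, 18409 and 9824 (log2 fold change 7.49, limma adjusted p = 5.1e-08). Replicate 3 was the lowest of the LPS libraries for both, and neither group overlapped the other. Some cytokines came from almost nothing: *Csf3*, the growth factor of neutrophils, had 2, 1 and 0 reads in the WT libraries and 210, 350 and 89 in the SOD1G93A LPS libraries. *Il10*, an anti-inflammatory cytokine, had 1, 0 and 3 reads in WT and normalized counts of 131, 127 and 21.9 in SOD1G93A LPS. Its log2 fold change was 5.39 (6.22 without replicate 3). The limma call of *Il10* was lost without WT replicate 1 or 2 or without SOD1G93A LPS replicate 1 or 2 (adjusted p from 0.00197 to 0.00275). That call was also lost with a replicate block (adjusted p = 0.00102) and in limma without trend (adjusted p = 0.00226). *Tgfb1*, which encodes a factor of the homeostatic state, overlapped between the groups at 2336, 2739 and 2457 in WT and 2616, 2543 and 3259 in SOD1G93A LPS. Of the 21 of 24 cytokine genes that passed the filter, 17 were called higher, with a median log2 fold change of 4.62, or 4.51 with the 6 genes that had at most 3 reads in each WT library set at their lower bound. The cytokine median was 3.73 with a pseudocount of 5 and 5.48 with DESeq2.

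**Figure D2:**
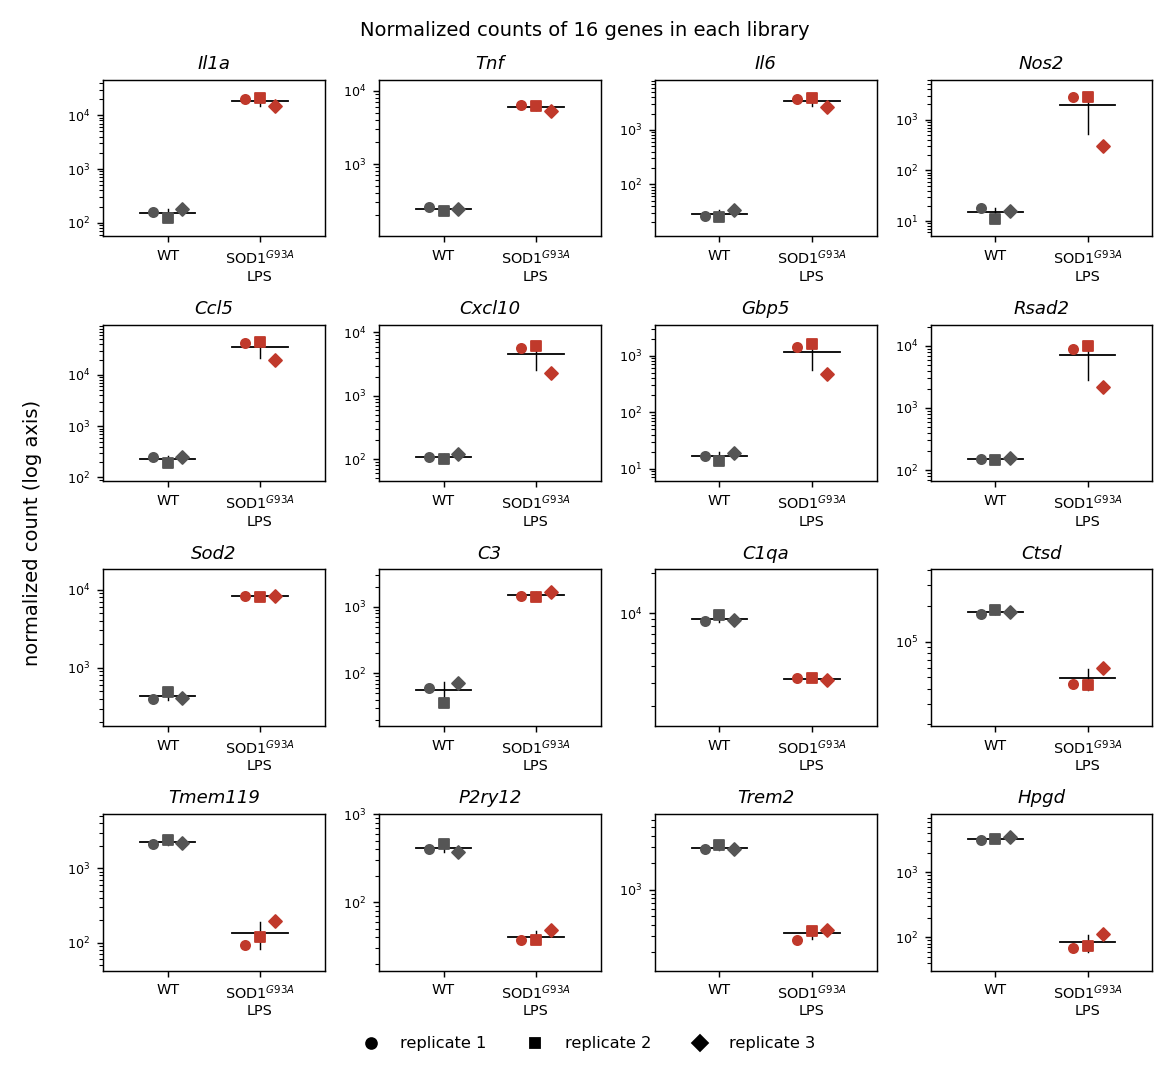
Normalized counts on a log axis of 16 genes in the 3 WT quiescent and 3 SOD1G93A LPS libraries, with the replicate shown by the marker, the mean as a horizontal line and the standard deviation as a vertical line. The groups do not overlap for these genes, as for every called gene and for 62.6% of all genes tested. Replicate 3 (diamond) sits below the other SOD1G93A LPS libraries for *Nos2*, at 305, and for *Rsad2*, at 2167.

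Most chemokine genes tested were higher. *Ccl2*, the main attractant of monocytes, had counts of 96.9, 87.2 and 109 in WT and 2550.5, 2656 and 1755 in SOD1G93A LPS and rose 23.7-fold (limma adjusted p = 8.8e-08). *Ccl3*, a ligand of CCR1, was already abundant in WT at 2601, 2319 and 2641 and reached 106958, 106004 and 89047. The 3 SOD1G93A LPS libraries were close to one another and 39.9-fold above the WT mean. *Ccl5*, another ligand of CCR1, went from 252, 188 and 248 to 42406, 43782 and 19738, with replicate 3 well below the other LPS libraries (log2 fold change 7.18, and 7.56 without replicate 3). The neutrophil attractants *Cxcl2* and *Cxcl3* rose by log2 fold changes of 6.59 and 7.26, and for *Cxcl3* replicate 3, at 2923, was level with replicate 2, at 2878. *Cxcl14* fell by 2.10 (limma adjusted p = 3.3e-05), and *Ccl6* and *Ccl12* were not called, at log2 fold changes of 1.47 and 0.74. *Cxcl10*, which interferon induces and T cells follow, had counts of 107, 101 and 123 in WT and 5616, 6043 and 2292 in SOD1G93A LPS. The lowest SOD1G93A LPS library, replicate 3, was still far above the highest WT library, and the log2 fold change was 5.27 (5.72 without replicate 3). A related gene, *Cxcl11*, had 0 reads in each WT library and normalized counts of 65.3, 62.2 and 17.2 in SOD1G93A LPS, at least 13.5-fold higher with 3 reads per library as the floor, and its call was lost without SOD1G93A LPS replicate 1.

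Genes for chemokine receptors split by direction. *Ccr7*, which guides cells to lymph nodes, had counts of 3.77, 2.24 and 5.62 in WT and 495, 530.4 and 236 in SOD1G93A LPS (log2 fold change 6.41, limma adjusted p = 1.3e-06). *Ccr1*, a receptor for the products of *Ccl3* and *Ccl5*, rose 15.4-fold. Falling with the homeostatic genes were *Cxcr4*, the receptor for CXCL12, from 2145, 1952 and 2159.5 to 484, 482 and 540.1, and *Cx3cr1*, the receptor for neuronal fractalkine, from 7444, 8523 and 7729 to 2959, 2726 and 4866. *Cxcr4* fell by 2.05 on the log2 scale with no library out of line, whereas replicate 3 held more *Cx3cr1* than replicates 1 and 2. The call of *Cx3cr1* (log2 fold change -1.21, limma adjusted p = 6.8e-04) was lost when any library other than that 1 was left out, with adjusted p from 0.00243 to 0.00688, and without replicate 3 it was -1.47 (adjusted p = 1.9e-10). Of the 25 of 30 chemokines and receptors that passed the filter, 18 were called higher and 3 lower, and the median was 4.57 (5.18 without replicate 3). With a pseudocount of 5 this median was 3.76, and over all 30 genes with no filter on low values it was 3.59.

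Interferon-stimulated genes rose nearly as a block. Of the 40 genes on the list, each of which passed the filter, 39 were called higher, with a median log2 fold change of 2.90, and the exception was *Apobec3*, at 0.26. *Ifit1*, which binds viral RNA lacking the host's cap mark, had counts of 141, 148 and 153 in WT and 6312, 6621 and 2453 in SOD1G93A LPS. Replicate 3 was below replicates 1 and 2 and far above WT, and the log2 fold change was 4.99 (5.45 without replicate 3). *Rsad2*, which encodes the antiviral enzyme viperin, went from 150.3, 148 and 157 to 9038, 10019 and 2167, so that replicates 1 and 2 held several times more than replicate 3. Its log2 fold change was 5.25 with replicate 3 and 5.96 without (limma adjusted p = 2.7e-05 and 7.7e-16). *Isg15*, a ubiquitin-like modifier, rose 33.7-fold, and *Oasl1*, a sensor-family member that limits translation of *Irf7*, rose 82.2-fold. The mRNA of *Ifnb1*, the interferon itself, did not pass the filter.

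Genes that carry the interferon signal changed in part. The receptor genes *Ifnar1* and *Ifnar2* had log2 fold changes of 0.62 and 0.73 and were not called, and *Ifngr1*, a receptor chain for interferon gamma, fell by 1.24. *Irf7*, the factor that amplifies interferon production, went from 367, 335 and 346 to 15082, 14585 and 6895. That is a log2 fold change of 5.04 (5.40 without replicate 3, which was well below the other LPS libraries). *Usp18*, which shuts off signalling at the receptor, rose 15-fold. Over the 19 genes of the list, 8 were called higher and 1 lower with a median of 0.78, and the number called higher was 5 without WT replicate 3 or without SOD1G93A LPS replicate 2.

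Guanylate-binding proteins and immunity-related GTPases, which attack vacuoles that hold bacteria, had a median log2 fold change of 5.09 (5.90 without SOD1G93A LPS replicate 3, 4.56 without SOD1G93A LPS replicate 2 and 4.63 without WT replicate 2), among the highest of the functional lists. With a pseudocount of 5 this median was 3.92, and over all 17 genes with no filter on low values it was 3.78. *Gbp5*, which also promotes inflammasome assembly, had counts of 16.7, 13.4 and 19.3 in WT and 1430.1, 1601 and 474 in SOD1G93A LPS. Replicate 3 was far below replicates 1 and 2 and far above WT, and the log2 fold change was 5.90 (limma adjusted p = 4.1e-06), or 6.45 without that library. *Gbp2* followed the same pattern with counts of 53.9, 58.1 and 59.4 in WT and 4076, 4285 and 1714 in SOD1G93A LPS. Of 17 listed genes, 13 passed the filter and 11 were called higher, and 13 were called higher without replicate 3. Members of this family resemble one another closely, so reads may be split between paralogs and the level of a single member is less certain than the shared direction.

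The DNA before the start of these genes was read to see what the rising genes share in sequence. Stretches of 250 bases from RefSeq on GRCm38.p6, which 8426 of the 10921 genes tested have, were searched on both strands for an interferon-response-type motif, AAANNGAAA, and for a kB-type motif, GGANTTTCC. A gene was counted when any of its stretches held the motif. The interferon-response-type motif was in 10.8% of all 27025 genes with a stretch and in 17.6% of the 669 genes called higher that have one. It was in 8.66% of the 612 called lower and in 7.96% of the 7145 not called. It was in 20 of the 32 antiviral interferon-stimulated genes with a stretch and in 8 of 8 guanylate-binding and immunity-related genes. The kB-type motif was in 1.25% of all genes with a stretch, in 4.04% of genes called higher, in 1.14% of genes called lower and in 5 of 17 chemokines and receptors. A match describes the letters and does not show binding. *Ifit1* is shown for the interferon-response-type motif, *Cxcl3* and *Nfkbia* for the kB-type motif, and *Cxcl10* and *Gbp5* for holding both, with matches in capitals, reading toward the gene. The 2 interferon-response-type matches of *Gbp5* overlap by 3 bases. The stretches lie at chr19:34640639-34640888 (plus strand) for *Ifit1*, chr3:142496684-142496933 (plus strand) for *Gbp5*, chr5:92348890-92349139 (minus strand) for *Cxcl10*, chr5:90785851-90786100 (plus strand) for *Cxcl3* and chr12:55492648-55492897 (minus strand) for *Nfkbia*.
Ifit1: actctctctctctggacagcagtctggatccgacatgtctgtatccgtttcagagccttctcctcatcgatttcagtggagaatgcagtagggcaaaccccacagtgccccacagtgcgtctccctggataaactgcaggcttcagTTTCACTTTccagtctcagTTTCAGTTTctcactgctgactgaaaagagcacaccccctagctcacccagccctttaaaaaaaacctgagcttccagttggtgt
Gbp5: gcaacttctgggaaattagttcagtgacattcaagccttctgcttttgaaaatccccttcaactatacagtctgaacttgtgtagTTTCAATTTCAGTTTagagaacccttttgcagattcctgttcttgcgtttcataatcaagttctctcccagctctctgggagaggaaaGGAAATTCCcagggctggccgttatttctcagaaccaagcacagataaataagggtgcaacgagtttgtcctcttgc
Cxcl10: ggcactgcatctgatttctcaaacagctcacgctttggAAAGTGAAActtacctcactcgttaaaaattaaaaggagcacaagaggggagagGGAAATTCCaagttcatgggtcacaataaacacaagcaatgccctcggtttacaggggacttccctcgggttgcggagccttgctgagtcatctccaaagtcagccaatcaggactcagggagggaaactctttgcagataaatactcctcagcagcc
Cxcl3: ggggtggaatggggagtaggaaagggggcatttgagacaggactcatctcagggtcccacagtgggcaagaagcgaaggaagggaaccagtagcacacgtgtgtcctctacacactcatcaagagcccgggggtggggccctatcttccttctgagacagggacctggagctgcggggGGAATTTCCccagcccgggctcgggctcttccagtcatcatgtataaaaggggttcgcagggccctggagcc
Nfkbia: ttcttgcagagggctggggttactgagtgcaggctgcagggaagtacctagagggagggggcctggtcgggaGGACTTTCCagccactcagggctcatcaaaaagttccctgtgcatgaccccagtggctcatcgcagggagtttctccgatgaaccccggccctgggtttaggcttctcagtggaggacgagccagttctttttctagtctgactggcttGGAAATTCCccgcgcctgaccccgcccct

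Several class I genes of antigen presentation rose. *H2-K1*, a classical class I heavy chain, had counts of 2120.3, 2082 and 2175 in WT and 14535, 14548 and 9277 in SOD1G93A LPS and rose 6.02-fold (limma adjusted p = 2.3e-06). *B2m*, the light chain of class I, rose 3.25-fold, and *Nlrc5*, the factor that drives class I transcription, rose 9.33-fold. The class II genes *H2-Aa* and *Cd74* had log2 fold changes of -0.08 and 0.26 and were not called. *H2-DMa*, which helps load class II with peptide, fell from 202, 235 and 176 to 48.4, 28.3 and 40.7, a log2 fold change of -2.38. *H2-Q7* and *H2-Q8* also rose, at 5.79 and 7.19 (for *H2-Q8* 7.91 without WT replicate 1 and 5.91 without WT replicate 2), but reads of these close paralogs may be split between them, and the limma call of *H2-Q8* was lost without SOD1G93A LPS replicate 1 (adjusted p = 0.00119) or 2 (adjusted p = 0.00142). Of the 22 of 24 listed genes that passed the filter, 14 were called higher and 2 lower, with a median of 1.55.

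The mRNA of several surface proteins through which microglia address T cells rose as well. *Cd40*, a receptor that T cells engage, had counts of 15.6, 13.4 and 14.5 in WT and 2206, 2301 and 649.7 in SOD1G93A LPS, with replicate 3 the lowest of the LPS libraries by a wide margin. Its log2 fold change was 6.59 (limma adjusted p = 2.6e-06), or 7.19 without replicate 3. *Cd69*, an early activation antigen, went from 35.5, 29.1 and 24.1 to 1835, 1777 and 1761, and here replicate 3 matched the others (log2 fold change 5.89, limma adjusted p = 1.1e-08). *Cd38*, an enzyme that consumes NAD, was likewise even across the LPS libraries, at 350.2, 318 and 368 against 2.15, 2.24 and 5.62 in WT. The inhibitory ligand *Cd274*, known as PD-L1, rose 31.2-fold, while *Havcr2*, the checkpoint receptor TIM-3, fell from 1763, 1735 and 1755 to 222, 250.5 and 216. The libraries of each group lay close together for *Havcr2*, which fell by 2.93 on the log2 scale (limma adjusted p = 2.1e-08). In the list of costimulatory, checkpoint and adhesion genes 13 of the 19 tested of 24 were called higher and 2 lower, with a median of 1.85, or 2.35 to 2.38 without any 1 of the WT libraries.

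Most of the genes that define resting microglia fell. *Tmem119*, a membrane protein used as a microglial marker, had counts of 2093, 2401 and 2152 in WT and 93.5, 119 and 194 in SOD1G93A LPS. Replicate 3 kept the most of it among the LPS libraries, yet far less than WT, and the gene fell by 4.09 on the log2 scale (limma adjusted p = 1.0e-06). *P2ry12*, the receptor for ADP that steers microglial processes to injury, went from 405, 456 and 377 to 37.2, 37.3 and 48.5. *Trem2*, the lipid receptor that drives microglia toward phagocytosis, went from 2833, 3148 and 2851 to 275, 345 and 357. For both, the LPS libraries lay close together and far below WT, at log2 fold changes of -3.31 and -3.18 (limma adjusted p = 2.5e-07 and 6.0e-08). *Gpr34*, a lysophosphatidylserine receptor, fell by 4.26. *Tgfbr1*, through which TGF-beta sustains this state, fell from 5948, 6156 and 5952 to 1235, 1328 and 1354. Of the 28 of 30 homeostatic genes that passed the filter, 20 were called lower and 2, *Gpr84* and *Cd33*, higher, with a median of -1.70 (-1.83 without replicate 3). *Siglech*, another marker of the resting state, overlapped between the groups, at 39.3, 38 and 29.7 in WT and 34.9, 44.7 and 37.6 in SOD1G93A LPS.

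Genes for transcription factors of the lineage divided. *Spi1*, the master factor of macrophages known as PU.1, was at 2726, 2587 and 2698 in WT and 2717, 2681 and 2892 in SOD1G93A LPS, so the groups overlapped. *Maf*, a basic leucine zipper factor, rose from 302, 277 and 334 to 1406, 1263 and 1068, with replicate 3 close to its group (log2 fold change 2.02, limma adjusted p = 1.2e-06). *Mef2c*, which restrains the response to inflammation, fell by 2.12, *Cebpa*, a myeloid factor, fell by 2.08, and *Sall1*, the factor that sets microglia apart from other macrophages, fell by 1.10. Among 21 such factors 8 were called lower and 4 higher, with a median of 0.05.

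Genes that mark microglia around amyloid or in degenerating tissue moved both ways. *Spp1*, the secreted protein osteopontin, fell from 18804, 16523 and 22240.5 to 4037, 3618 and 5093 (log2 fold change -2.18, limma adjusted p = 3.5e-06). *Apoe*, the lipid carrier, overlapped between the groups at 16622, 10269.6 and 15579.8 in WT and 17493, 15812 and 14948 in SOD1G93A LPS, with WT replicate 2 the lowest of the 6. *Lpl*, which releases fatty acids from lipoproteins, was at 7872, 8814 and 8928 in WT and 1319, 1259.8 and 4309.9 in SOD1G93A LPS, with replicate 3 far above its group. It was not called by limma with replicate 3 (log2 fold change -2.14, adjusted p = 0.00179) unless with quantile normalization (-2.41), a replicate block or all 9 microglia libraries in 1 fit, and was called without it (-2.72, adjusted p = 2.6e-13). *Cst7*, a cathepsin inhibitor, rose 4.29-fold. Over the 30 genes of the list 8 were called higher and 7 lower, and the median was -0.29.

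Complement genes split, with C1q chains lower and C3 and factor B higher. *C1qa*, a chain of the initiator C1q and another astrocyte-activating factor of the study, is at chr4:136895917-136898803 and had counts of 8780, 9728 and 8836 in WT and 3223, 3224 and 3139 in SOD1G93A LPS. Unlike *Il1a* and *Tnf* it was lower in each SOD1G93A LPS library, and it fell by 1.51 on the log2 scale (limma adjusted p = 4.1e-07). *C1qc* fell by 1.37, and *C1qb*, at 6789.5, 7222 and 6694 in WT and 4269, 4146 and 3539.6 in SOD1G93A LPS, had a log2 fold change of -0.80 that did not reach 2-fold. Under quantile normalization *C1qb* was called, at -1.05. *C3*, the component on which the cascade converges, went from 60.3, 35.8 and 70.7 to 1469.5, 1422 and 1656, and *Cfb*, factor B of the alternative pathway, went from 4.85, 4.47 and 9.64 to 947, 791 and 537. The groups did not overlap for either gene, and the rises were 27.3-fold and 120.0-fold (limma adjusted p = 3.6e-07 and 3.0e-07). *C5ar2*, a receptor for the C5a fragment, fell by 3.49. With 16 of 23 complement genes past the filter, 4 were called higher and 4 lower, and the median was -0.11.

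**Figure D3:**
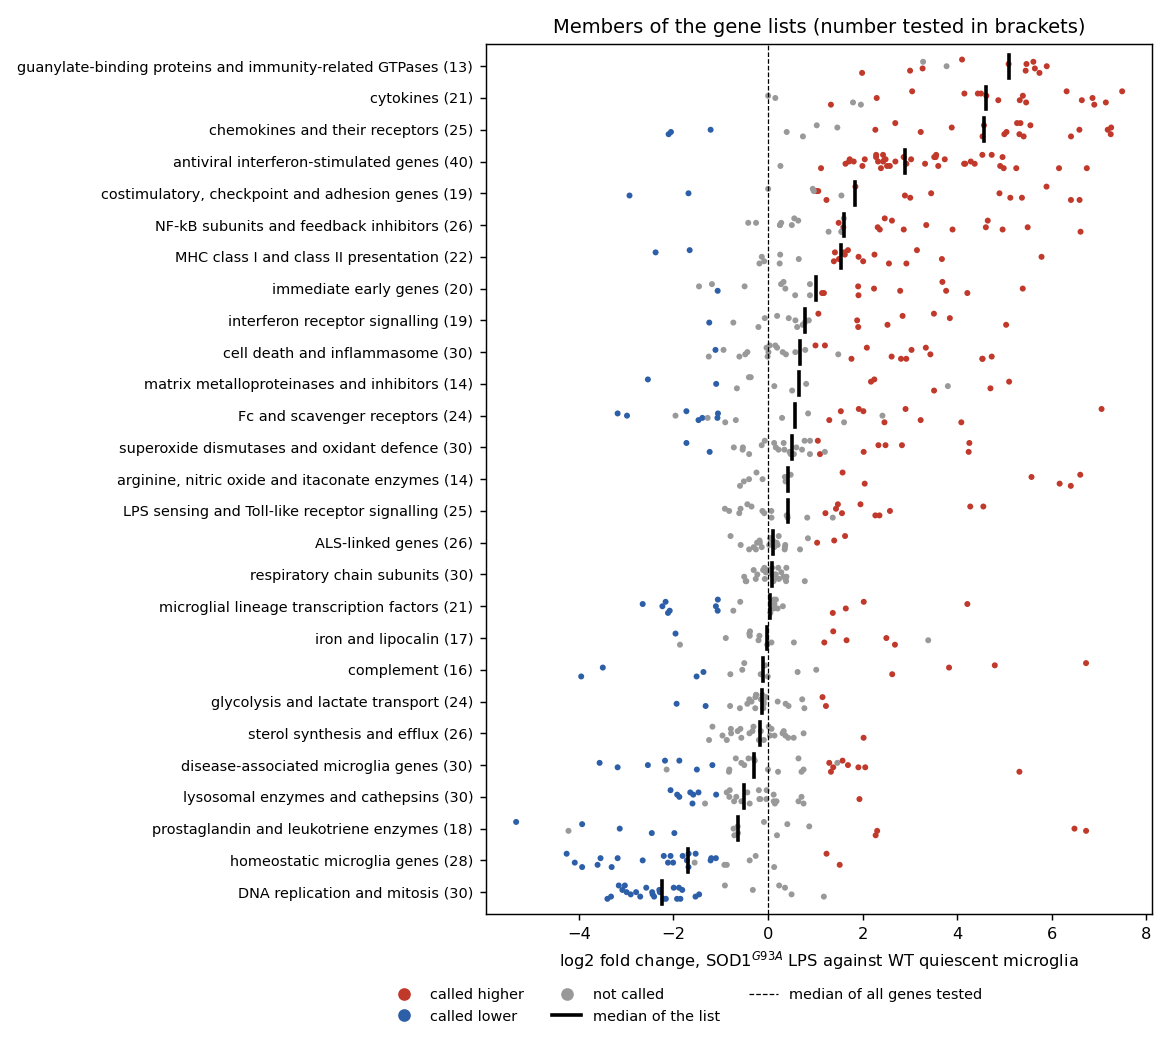
Each point is a gene of a list that passed the low-value filter, placed by its log2 fold change between SOD1G93A LPS and WT quiescent microglia, red when called higher, blue when called lower and grey otherwise. Thick bars are list medians, from -2.25 for DNA replication to 5.09 for guanylate-binding proteins, and the dashed line is the median of all genes tested, 0.01.

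The mRNA of some enzymes that make antimicrobial and signalling metabolites rose. *Nos2*, the inducible nitric oxide synthase, had counts of 17.8, 11.2 and 16.1 in WT and 2763, 2796 and 305 in SOD1G93A LPS, so replicate 3 held far less than replicates 1 and 2 and far more than WT. Its log2 fold change was 6.40 (limma adjusted p = 1.0e-04) and 7.46 without replicate 3, and the call was lost without WT replicate 2 (adjusted p = 0.00180). *Irg1*, the older symbol of *Acod1*, makes itaconate, and its counts were 276, 208 and 298 in WT and 29065, 28548 and 19164 in SOD1G93A LPS. It rose 98.2-fold and the LPS libraries, replicate 3 the lowest, were far above WT (limma adjusted p = 2.3e-08). *Slc7a2*, which imports arginine, rose 49.1-fold. *Gch1*, which makes the cofactor of nitric oxide synthase, rose 2.99-fold. Of the 14 of 18 genes of this list that passed the filter, 6 were called higher and 5 lay below 0, with a median of 0.42, or 1.03 over the 12 not on the X or Y chromosome.

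Prostaglandin genes moved in both directions. *Ptgs2*, the inducible cyclooxygenase, had counts of 535, 425 and 536 in WT and 66043, 65197 and 33810.5 in SOD1G93A LPS. It rose 110.4-fold (limma adjusted p = 9.0e-08), with replicate 3 well below the other LPS libraries. *Ptges*, the synthase that follows it, rose 91.3-fold, while the constitutive cyclooxygenase gene *Ptgs1* fell by 2.46 on the log2 scale. *Hpgd*, which breaks prostaglandins down, fell from 3164, 3231 and 3567 to 67.6, 72.4 and 111. All LPS libraries were far below WT, and the log2 fold change of -5.33 (limma adjusted p = 4.8e-08) is among the 10 largest falls. On the leukotriene branch *Alox5ap* and *Ltc4s* fell, at log2 fold changes of -3.14 and -3.93, and *Alox5*, at 115, 121 and 122 in WT and 0, 10.7 and 21.9 in SOD1G93A LPS, was called by limma without SOD1G93A LPS replicate 3 (log2 fold change -5.13) or 1 (-2.87) but not with all libraries (-4.22), where it was called by edgeR (-3.57) and by limma with a pseudocount of 5 (-3.27). Of 18 of 21 listed genes past the filter 4 were called higher and 5 lower, and the median was -0.64.

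Most genes of DNA replication and mitosis fell, 24 of 30 of them called lower, with the lowest median of the functional lists, -2.25 (-2.38 without replicate 3). *Mki67*, the marker of cycling cells, had counts of 1693, 1248 and 1796 in WT and 307, 328 and 374 in SOD1G93A LPS. The WT libraries were well above the LPS libraries, and the gene fell by 2.21 on the log2 scale (limma adjusted p = 2.4e-06). *Ccnd1*, the cyclin that carries cells out of their resting phase, fell from 5289.6, 6075 and 5388 to 409.9, 500.4 and 719 (log2 fold change -3.40, limma adjusted p = 7.9e-07). *Plk1*, a kinase of mitosis, was even in both groups at 211, 230.3 and 229 in WT and 22.5, 21.5 and 20.4 in SOD1G93A LPS. *Cdkn1a*, the inhibitor p21, was not called, with a log2 fold change of 0.36. *Ccnd2*, a second D-type cyclin, was at 358, 295 and 309 in WT and 976, 1221 and 321 in SOD1G93A LPS, where replicate 3 fell within the range of WT, and it was called higher without replicate 3 (log2 fold change 1.77, limma adjusted p = 3.4e-09).

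Central metabolism stood nearer to the background of all genes. The 30 respiratory chain genes had log2 fold changes between -0.50 and 0.78 with a median of 0.09. Of 24 glycolysis genes 2 were called higher (0 under quantile normalization) and 2 lower (1 without any 1 of the WT libraries or without SOD1G93A LPS replicate 2), with a median of -0.13. The genes called lower were *Pdk1* and *Slc2a3*, at log2 fold changes of -1.93 and -1.32, with the call of *Pdk1* the one lost, and *Hk3* was called higher at 1.15. *Gapdh* overlapped between the groups at 16707, 19611 and 17912 in WT and 13769, 13602 and 17879.8 in SOD1G93A LPS. *Hif1a*, which drives glycolytic genes, went from 1526, 1538 and 1575 to 3657, 3502 and 3692, a log2 fold change of 1.23 that drops to 0.98 under quantile normalization. Sterol synthesis and efflux genes had a median of -0.17 over 26 genes tested.

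Genes of oxidant production and defence rose in part. *Cybb*, the catalytic subunit of the NADPH oxidase that makes superoxide, had counts of 3875, 4224 and 4459.5 in WT and 28790.4, 27008 and 33958 in SOD1G93A LPS and rose 7.15-fold (limma adjusted p = 1.1e-07). *Slc7a11*, which imports cystine for glutathione, went from 275, 244 and 267 to 5079.5, 4717 and 5287. Replicate 3 was the highest of the LPS libraries for both genes, and *Slc7a11* rose 19.2-fold (limma adjusted p = 7.5e-09). *Gsr*, which recycles glutathione, rose 5.06-fold and *Prdx5*, a peroxiredoxin, rose 5.60-fold, whereas *Gpx1*, a glutathione peroxidase, fell by 1.73 on the log2 scale, with its call lost without WT replicate 2 (limma adjusted p = 0.00123). Of 30 listed genes 8 were called higher and 2 lower, or 1 lower without WT replicate 2, with a median of 0.51. The share called lower is close to the 7.51% of all genes tested.

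Iron storage and the lysosome changed in the most abundant transcripts of these cells. *Fth1*, the ferritin heavy chain, had counts of 81054, 100762 and 88301 in WT and 236648, 233710.4 and 229588 in SOD1G93A LPS, a rise of 2.59-fold (limma adjusted p = 4.1e-05). Its call was lost without WT replicate 3 (adjusted p = 0.00144) and with a replicate block (adjusted p = 0.00115). *Lcn2*, which binds bacterial iron carriers, rose 6.46-fold. Of 19 iron genes 17 passed the filter, 5 were called higher and 1 lower, or 2 lower without replicate 3, and the median was -0.02 (0.08 without WT replicate 2). *Ctsd*, the lysosomal protease cathepsin D, went from 171247, 184691 and 177333 to 43752, 43171 and 60099. All SOD1G93A LPS libraries lay far below WT, replicate 3 least so, and the gene fell by 1.88 on the log2 scale (limma adjusted p = 1.2e-05). *Lgmn*, the protease legumain, fell by 1.58 and *Tfeb*, the factor that drives lysosomal genes, fell by 1.60, whereas *Ctsc*, which activates serine proteases, rose 3.83-fold. Of 30 lysosomal genes 8 were called lower, or 5 without WT replicate 2, and 1 higher, with a median of -0.50.

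Genes of cell death and the inflammasome were in part higher, with 13 of 30 called higher, 1 lower (0 without any 1 of the WT libraries and 2 without SOD1G93A LPS replicate 3) and a median of 0.68. *Nlrp3*, the sensor that assembles the inflammasome, had counts of 461, 427 and 434 in WT and 3273, 3214 and 2832 in SOD1G93A LPS and rose 7.05-fold (limma adjusted p = 2.3e-08). *Casp4*, the caspase that binds LPS inside the cell, rose 11.5-fold, and *Mlkl*, which ruptures the membrane in necroptosis, rose 26.4-fold. *Gsdmd*, which forms pores once cut, sat at the 2-fold line with a log2 fold change of 1.00, and its call was lost without WT replicate 1 or 2 or SOD1G93A LPS replicate 1 or 2 (log2 fold changes from 0.91 to 1.01) and under quantile normalization (0.90).

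Genes for receptors of antibody and debris moved both ways. *Marco*, a scavenger receptor for bacteria, had counts of 7.0, 6.71 and 8.03 in WT and 973, 755 and 1775 in SOD1G93A LPS. Replicate 3 was the highest, and the log2 fold change was 7.05 (limma adjusted p = 1.5e-07). *Fcgr2b*, the inhibitory receptor for IgG, rose 9.44-fold, while *Fcgr3*, an activating one, fell by 1.39 on the log2 scale. The calls of the activating receptors *Fcgr1* and *Fcgr4*, at log2 fold changes of 1.61 and 2.42, depend on the setting: the main limma fit did not call them (adjusted p = 0.00101 and 0.00257), whereas edgeR, DESeq2, the fit of all 9 microglia libraries and limma without replicate 3 (1.99 and 3.01) did, as did some other limma settings for *Fcgr1*. *Gas6*, a ligand that tags dying cells for uptake, fell from 1017, 1366 and 1070.5 to 143, 136 and 152. Of the 24 of 25 listed receptors and ligands that passed the filter, 9 were called higher and 7 lower, with a median of 0.57, or 1.14 over the 22 that passed it without WT replicate 2.

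Enzymes of the matrix and early-response factors complete the lists. *Mmp13*, a collagenase, went from 107, 123 and 124 to 5497, 6114 and 2016 and rose 38.4-fold (limma adjusted p = 4.4e-06), while *Timp2*, an inhibitor of such enzymes, fell from 2047, 2462 and 2178 to 332, 343 and 485. Among 14 of 16 listed matrix genes past the filter 5 were called higher and 2 lower, and the median of 0.66 became -0.05 over the 13 that passed the filter without replicate 3. *Nr4a3* and *Nr4a1*, orphan nuclear receptors induced within minutes of a stimulus, rose by log2 fold changes of 5.39 and 4.22, whereas *Egr1*, another early gene, fell by 1.06. Of 20 immediate early genes 10 were called higher and 1 lower, or 2 lower without replicate 3, with a median of 1.01.

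Several of the largest rises and falls were in genes outside these lists. *Vnn3*, which makes the thiol cysteamine, had 3, 0 and 4 reads in WT and normalized counts of 359, 325 and 573 in SOD1G93A LPS. *Lox*, which crosslinks collagen, went from 66.8, 38 and 55.4 to 7029, 6316 and 9573, and *Serpinb2*, an inhibitor of plasminogen activators, went from 11.3, 11.2 and 17.7 to 2151, 1917 and 1681. Their log2 fold changes were 7.15 and 7.08 (limma adjusted p = 3.3e-08 and 1.8e-08), and replicate 3 was the highest for *Lox* and the lowest for *Serpinb2*. *Plau*, the plasminogen activator urokinase that *Serpinb2* inhibits, fell from 3487, 3743 and 3391 to 157, 162 and 241 (log2 fold change -4.27, limma adjusted p = 9.0e-08). *Slco2b1*, an organic anion transporter, fell by 4.54, *Nanos1*, an RNA-binding repressor of translation, fell by 4.89, and *Chn2*, a regulator of the GTPase Rac, fell by 4.16. *Cables1*, a partner of cyclin-dependent kinases, fell by 4.40, and *Gm11545* and *C77080*, whose products are little described, fell at log2 fold changes of -5.50 and -4.80.

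Setting the SOD1G93A LPS libraries beside WT microglia given the same LPS leaves genotype, with the culture each library came from, as the difference. In this separately normalized table *Tnf* stood at 6259, 5859 and 5346 in WT LPS and 6002, 5879 and 5060.3 in SOD1G93A LPS, and *Tmem119* stood at 98.4, 81.7 and 71.6 and 87, 111 and 183. Of 10679 genes tested, limma called 0 (0.00%), with 930 at an unadjusted p under 0.05, whereas edgeR called 0 with 881 and DESeq2 called 3 with 670. WT LPS replicate 1 also stood apart from its group, by 15.1 and 13.8 times counting error in variance against 1.65 between replicates 2 and 3. Without it and SOD1G93A LPS replicate 3, a choice made after seeing the data, limma called 3 genes. That fit put 304 of 10664 genes at an adjusted p under 0.05. With all libraries limma put 1 gene there, edgeR 1 and DESeq2 12. A p that misses the threshold does not show that the genotypes respond alike.

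Among the genes that DESeq2 called were *Fn1* and *Cx3cr1*, which limma with all libraries did not call. *Fn1*, which encodes the matrix protein fibronectin, stood at 579, 799.9 and 829.6 in WT LPS and 2146, 2169 and 3614 in SOD1G93A LPS (log2 fold change 1.82, limma adjusted p = 0.101, and 1.57 without replicate 3). *Cx3cr1* stood at 1516, 1639 and 1582 and 2754, 2556 and 4581, a log2 fold change of 1.01 with replicate 3 the highest (limma adjusted p = 0.571), and 0.75 without replicate 3. Limma without the 2 libraries that stand apart called *Fn1* and *Tmem254b* among its genes. List medians in this table were -0.53 for interferon-stimulated genes, -0.54 for guanylate-binding proteins, -0.37 for cytokines and 0.33 for homeostatic genes, which is the direction in which replicate 3 departs from its group. Without SOD1G93A LPS replicate 3 these medians were -0.16, -0.08, -0.19 and 0.25.

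WT LPS microglia were also set against the same 3 WT quiescent libraries. Because both comparisons use those WT libraries, their values are given side by side and no likeness between them is computed. The log2 fold changes in SOD1G93A LPS and in WT LPS were 6.90 and 7.46 for *Il1a*, 4.62 and 4.66 for *Tnf*, and -1.51 and -1.53 for *C1qa*. For *Nos2* they were 6.40 and 7.65, for *Cxcl10* 5.27 and 6.09, and for *Rsad2* 5.25 and 6.24. Without SOD1G93A LPS replicate 3 the first of each pair became 7.46, 5.72 and 5.96. For *Tmem119* they were -4.09 and -4.62, for *Trem2* -3.18 and -3.56, and for *Sod1* -0.40 and -0.57. *Ddx3y* was -4.76 and -4.56, so the WT LPS libraries, too, held few Y-linked reads.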

How the data were processed

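Bulk RNA-seq of cultured mouse microglia was used: 3 WT quiescent, 3 SOD1G93A LPS and 3 WT LPS libraries. Per the labels and the study's methods, the authors made strand-specific polyA libraries, aligned the reads to mm10 with STAR 2.7.3a and counted them with RSEM, with an annotation they did not name. The deposited signal values are normalized counts that the authors obtained with DESeq2, as gene counts divided by 1 size factor per library within each comparison, so each comparison has its own scale. The deposited comparison columns (mean, log2 fold change, its standard error, test score, p and adjusted p) were not used. Whole reads were recovered for 100% of the values (tolerance 0.01). Genes with a mean of at least 10 over the 6 libraries were tested with limma 3.58.1 (trend, in R 4.3.3) on log2(normalized count + 1), with Benjamini-Hochberg adjustment over all genes tested, and called at adjusted p under 0.001 and over 2-fold. On the recovered reads edgeR 4.0.16 called 1887 genes and DESeq2 1.42.0 called 2000, against 1718. The code was tested on simulated data. Libraries held 2550560 to 11570122 reads, and bounds given with a floor of 3 reads cover counting error only. CPM values are recovered reads scaled by each library's total. The named genes are the 10 largest rises and 10 largest falls whose groups do not overlap and that are above the floor, *Sod1*, the astrocyte-activating factors and the genes the study measured by qPCR, the exemplars and most changed members of each list, and genes called between the LPS groups. *Fn1*, *Cx3cr1* and *Tmem254b* in the comparison of LPS groups, and further members of the lists, were named after their values were seen. Some genes that these rules or the flagging rule pick are not reported here. The members and lists were chosen with earlier results of these data known. Alternatives were other pseudocounts, filters, scalings, tools and thresholds, leaving out each library, a replicate block, and, chosen after seeing the data, leaving out X-linked and Y-linked genes or the 2 LPS libraries that stand apart. Gene positions are from the GENCODE annotation of GRCm38, with older gene symbols matched through RefSeq synonyms. The stretches before gene starts are from RefSeq on GRCm38.p6. The astrocyte libraries and the SOD1G93A microglia without LPS were left out because they are not in this comparison.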

Additional observations from a re-analysis of the deposited data

How the results depend on the processing

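SOD1G93A LPS against WT quiescent microglia gave 1263 to 2187 called genes when 1 library was left out, 749 to 1075 of them higher and 513 to 1112 lower, the lowest lower counts coming without a WT library and the highest without SOD1G93A LPS replicate 3. At adjusted p under 0.05 and any fold change 5883 genes passed, 3038 higher and 2845 lower, a looser rule by construction. Under the other settings the 3 counts stayed within 1.5 times, the total running from 1346 (limma without trend) to 2217 (adjusted p under 0.05 and over 2-fold). With the replicate number as a replicate block 1588 genes were called, but libraries of the same number do not pair: their deviations from the group means correlated across genes at 0.01, -0.04 and -0.03, and genes are not independent replicates. Against WT LPS microglia limma called 0 under the settings that left out 1 library, and DESeq2 called 3 (3 higher). The fit without the 2 LPS libraries that stand apart, chosen after seeing the data, called 3 (3 higher). In limma with all libraries an adjusted p limit of 0.05 gave 1 (1 higher), with or without the 2-fold limit. At any fold change that limit gave 12 with DESeq2 and 304 without the 2 libraries that stand apart. Why these counts moved was not tested. Of the values of named genes under alternatives, 4253 kept their direction and side of the threshold, 119 lost a call, 31 gained a call, 18 of genes not called moved and 0 called values changed sign, by limma, edgeR and DESeq2. The depth of WT replicate 2, 2550560 reads, limits genes with few reads, and 46 genes called higher had at most 3 reads in each WT library, so their size of change is not fixed.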
